A study of Homo sapiens with 18 samples.

Results

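MEIS, PBX and PKNOX proteins are the TALE-class homeodomain cofactors of HOX transcription factors. The genes described here are MEIS1, MEIS2, MEIS3, PBX2, PBX3, PBX4, PKNOX1 and PKNOX2, chosen by symbol, and they are 8 of the 37550 rows of the TPM table. All 8 passed the filter on low values, which 17033 genes passed (at least 1 TPM in at least 2 libraries). TPM scales transcript abundance by transcript length to the same total in every library, so levels of different genes can be set side by side.

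All 18 libraries came from the wild-type H1 line, an established line of human pluripotent cells, with 2 biological replicates in each of 9 groups. Undifferentiated cells (hPSC) were collected at day 0. All other cells spent day 1 in a definitive ectoderm medium with A8301, an inhibitor of TGF-beta type receptors, LDN193189, an inhibitor of BMP receptors, the MEK inhibitor trametinib (250 nM) and the porcupine inhibitor C59 (1 µM), which blocks WNT secretion. On day 2 all of them received A8301 (1 µM), LDN193189 (100 nM) and the ROCK inhibitor thiazovivin. Anterior neural ectoderm (aNE) also received C59 (1 µM) on day 2. Posterior neural ectoderm (pNE) instead received the retinoic acid receptor agonist TTNPB (50 nM), FGF2 (20 ng/mL) and the tankyrase inhibitor XAV939 (1 µM), which lowers WNT signalling. Each was collected at day 2 or grown to day 4 in a forebrain (T), midbrain (M) or hindbrain (H) medium, giving aNE_T, aNE_M, aNE_H, pNE_T, pNE_M and pNE_H. On day 3 the forebrain medium held XAV939 (1 µM), LDN193189 (100 nM) and FGF2 (20 ng/mL); the compositions of the other media are not used here. Day-2 cells were plated at 37500 cells per cm2, but day-4 cells at 75000 (aNE origin) or 150000 (pNE origin). Origin and plating density therefore cannot be told apart at day 4. Between day 2 and day 4 of an origin, the effects of time, medium and plating density cannot be told apart either. The labels call the replicates biological without naming separate cultures, and p-values measure only the spread between these libraries.

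HOX proteins by themselves bind short, common DNA sequences. PBX proteins bind DNA together with HOX proteins, and MEIS and PKNOX proteins pair with PBX, help keep it in the nucleus and add their own DNA contact. In vertebrate embryos MEIS genes respond to retinoic acid, and the cofactors take part in hindbrain segment identity with the early HOX genes.

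Promoter sequence is shown for the MEIS genes, which had the most called differences among the 36 pairs of groups (24 for MEIS1, 26 for MEIS2 and 23 for MEIS3, with PKNOX2 next at 21), and for PBX3, which had the most of these PBX genes (6). RefSeq promoter sequences (GRCh38.p14) were found for 7 of the 8 genes, with 9 start sites, and the 250 bases before each start were searched on both strands. The MEIS1 window is chr2:66434875-66435124 on the plus strand, and the first MEIS3 window is chr19:47422234-47422483 on the minus strand. Both lie just outside the annotated gene. MEIS2 and PBX3 had a match to a searched motif in windows inside the annotated gene span, so only the 30 bases around each match are given, at chr15:37098742-37098771 (minus strand) and chr9:125748151-125748180 (plus strand). Capitals mark the matched motif, and sequences run 5′ to 3′.
MEIS1, upstream of its start: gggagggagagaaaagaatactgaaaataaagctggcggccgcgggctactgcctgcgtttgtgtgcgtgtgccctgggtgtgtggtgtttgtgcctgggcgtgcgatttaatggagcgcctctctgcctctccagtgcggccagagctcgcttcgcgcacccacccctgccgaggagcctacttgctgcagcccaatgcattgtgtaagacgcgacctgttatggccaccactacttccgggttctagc
MEIS3, upstream of its first start: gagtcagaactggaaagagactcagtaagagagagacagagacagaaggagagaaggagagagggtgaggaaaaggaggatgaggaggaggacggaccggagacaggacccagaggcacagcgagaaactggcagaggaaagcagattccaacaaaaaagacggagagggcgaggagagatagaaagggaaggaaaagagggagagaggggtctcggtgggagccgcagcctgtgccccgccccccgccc
MEIS2, around the match before its second start: atttcgcctttTGATTTATtggatcctcag
PBX3, around the match before its start: aactttgccgagCTGTCAccctcccgctgg
The MEIS2 letters match TGATTNAT, a composite of PBX and HOX sites, at positions -64 to -57 from the start. This motif occurs in 2.48% of 35116 promoters of the same length. The PBX3 letters match TGACAG, the core bound by MEIS and PKNOX, on the opposite strand at positions -20 to -15, and 13% of promoters hold it. The other motifs searched were the composite of TGAT followed directly by TGACAG (0.134% of promoters), and the retinoid half-sites AGGTCA (12.1%) and AGTTCA (8.8%). None of these letters were in the 9 windows, and a match or its absence is only a description of the sequence. The genes themselves lie at chr2:66435125-66573869 (MEIS1), chr15:36889204-37101311 (MEIS2), chr19:47403124-47422233 (MEIS3) and chr9:125747373-125967377 (PBX3).

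For all 18 libraries the closest library across tested genes was the replicate of the same group (Pearson's r of 0.982 to 0.987 within groups, at most 0.968 between groups). Between 13686 and 14679 genes had at least 1 TPM in a library, and the read depth is unknown. The summed TPM of 6 pluripotency markers was 4488 to 4522 in hPSC and at most 505 in every other library. Of 6 pan-neural markers, 5 or 6 had a group mean of at least 1 TPM in every differentiated group. The missing gene was SOX1 in aNE_M, aNE_H and pNE_H, and PAX6 in pNE_M. The summed midbrain markers reached 346 to 354 TPM in aNE_M and only 38.8 to 40.2 in pNE_M, in which EN1, a midbrain gene, was listed at 0 in both libraries. The letter M therefore names the medium only.

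MEIS1 had the widest ratio of highest to lowest mean TPM over the differentiated groups, and its high levels were those of pNE-derived cells at day 4. In hPSC it was at 0.273 and 0.0288 TPM (replicates 1 and 2). It was at 1.55 and 0.688 TPM in aNE, and at 2.78 and 3.26 TPM in pNE. In pNE-derived cells it reached 76.7 and 76.2 TPM in forebrain medium, 27.3 and 40.6 TPM in midbrain medium, and 128 and 150.5 TPM in hindbrain medium. All 6 of these libraries lay above all 12 others. The 6 libraries of aNE-derived cells at day 4 ranged only from 1.48 to 2.42 TPM. In the order of group means, pNE_H (139 ± 15.7 TPM, SD, n = 2) was above pNE_T (76.4 ± 0.374), then pNE_M (34.0 ± 9.39), then pNE (3.02 ± 0.341), and each of these steps passed limma's adjusted p (0.0180, 0.00153 and 2.25e-07). Below them followed aNE_H, aNE_T, aNE_M and aNE, and no step from a group to the next lower one passed (adjusted p of 0.211 to 0.802), although pNE against aNE, which are not neighbours, did (adjusted p = 0.0128). The lowest was hPSC.

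MEIS2 was already well above its stem cell level at day 2 in both ectoderms. It was at 0.335 and 0.0917 TPM in hPSC, 26.7 and 22.8 TPM in aNE, and 94.7 and 101 TPM in pNE. The aNE-derived cells at day 4 stayed between 29.0 and 37.6 TPM in all 3 media. The pNE-derived cells were at 227 and 246 TPM in forebrain medium, 148 and 171 TPM in midbrain medium, and 239 and 266 TPM in hindbrain medium. Every library of pNE or pNE-derived cells was above every library of the other groups. Of the neighbouring group means, pNE_H (252 ± 19.2 TPM, SD, n = 2) and pNE_T (237 ± 13.3) did not differ beyond their spread (adjusted p = 0.684). The steps down from aNE_M to aNE_H, aNE_T and aNE did not pass one by one (adjusted p of 0.118 to 0.929), but aNE_M was above aNE by a log2 difference of 0.47 (adjusted p = 0.0100).

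MEIS3 was the MEIS gene of undifferentiated cells and the one that depended on medium in another way. It was at 12.6 and 13.0 TPM in hPSC, 29.4 and 30.4 TPM in aNE, and 48.3 and 56.4 TPM in pNE. Among aNE-derived cells it was at 54.9 and 53.9 TPM in forebrain, 81.0 and 76.6 TPM in midbrain and 85.1 and 74.3 TPM in hindbrain medium. Among pNE-derived cells it was at 212 and 221 TPM in forebrain and 193 and 175 TPM in hindbrain medium, but at 35.2 and 43.2 TPM in midbrain medium. The midbrain-medium libraries of pNE origin were thus below all 6 libraries of aNE-derived cells at day 4, whereas the other 4 pNE-derived libraries were above them. Listed copies of MEIS3, MEIS3P1 (3.22 to 10.4 TPM) and MEIS3P2 (1.11 to 5.50 TPM), may share its reads, so the MEIS3 values are uncertain to that extent.

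**Figure D1:**
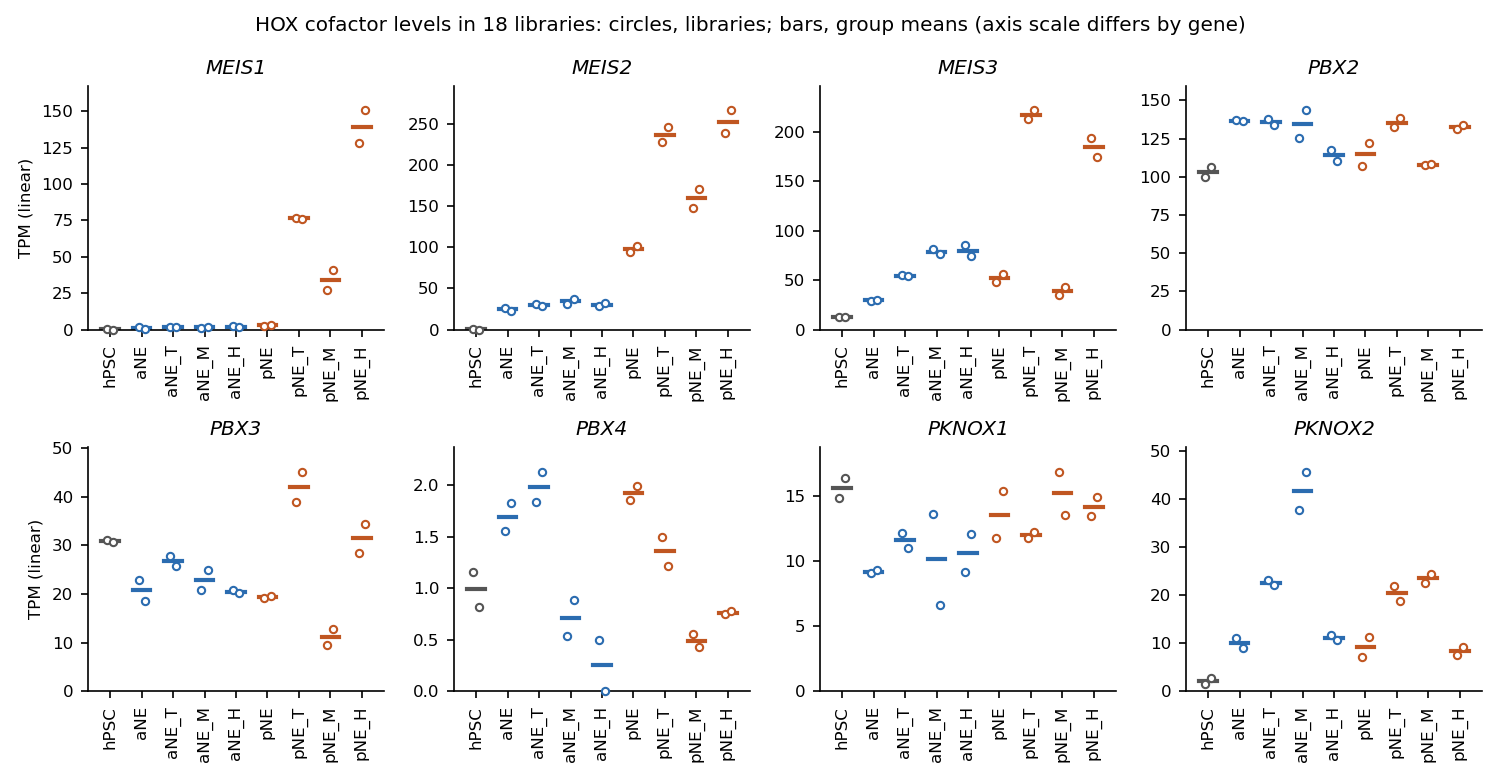
TPM (linear axis from 0, a different scale for each gene) of the 8 cofactors in 18 libraries, with circles for libraries and bars for group means. MEIS1 is above 27 TPM only in the 3 pNE-derived groups, while PBX2 stays between 99.8 and 143 TPM in all libraries.

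PBX genes encode the DNA-binding partners shared by HOX, MEIS and PKNOX proteins. Among PBX2, PBX3 and PBX4, the only PBX genes compared here, PBX2 was the most abundant and least variable. Its libraries ranged from 99.8 to 143 TPM with a median of 128 TPM, and 0 of the 36 pairs of groups passed the call (adjusted p under 0.05 and a log2 difference of at least 1 in either direction), although 18 passed the adjusted p alone. PBX3 was at 31.1 and 30.8 TPM in hPSC, 23.0 and 18.6 TPM in aNE, and 19.3 and 19.5 TPM in pNE. The aNE-derived cells were between 20.1 and 27.9 TPM. The pNE-derived cells were at 39.0 and 45.2 TPM in forebrain, 9.60 and 12.8 TPM in midbrain, and 28.5 and 34.5 TPM in hindbrain medium. PBX3 was thus highest and lowest in groups of the same origin, and the lowest step, pNE above pNE_M, passed (adjusted p = 0.00114), while the other 7 neighbouring steps did not. PBX4 was low throughout, from a value listed at 0 (1 library, aNE_H) to 2.13 TPM. PBX2 made up 75.7% to 90.2% of the summed TPM of these 3 PBX genes in every group.

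PKNOX1, also called PREP1, ranged from 6.61 to 16.8 TPM, and 0 of its 36 group pairs were called, 3 by adjusted p alone. Its aNE_M libraries lay apart, at 13.6 and 6.61 TPM. The PKNOX1 difference for pNE_M against aNE_M was 0.61 ± 0.24 (SE), and 1.08 without aNE_M replicate 1. PKNOX2 was called between media and in none of the 4 origin comparisons. In midbrain medium PKNOX2 had a difference of -0.80 ± 0.22 (SE) for pNE_M against aNE_M, which passed limma's adjusted p (0.0221) but not the size threshold. It was at 1.47 and 2.76 TPM in hPSC, 11.1 and 9.04 TPM in aNE, and 7.16 and 11.2 TPM in pNE. In aNE-derived cells it was at 23.2 and 22.1 TPM in forebrain, 37.7 and 45.7 TPM in midbrain and 11.8 and 10.6 TPM in hindbrain medium. In pNE-derived cells it was at 22.0 and 18.8, 22.5 and 24.5, and 7.48 and 9.16 TPM in the same media. Hindbrain-medium libraries of each origin were near their day-2 levels, and forebrain- and midbrain-medium libraries were above them. PKNOX2 rose from 11.7% ± 3.85 (SD, n = 2) of the summed PKNOX TPM in hPSC to 80.4% ± 9.86 in aNE_M.

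The comparison with hPSC asked which cofactors change on entry to each ectoderm. In aNE, MEIS2 rose by a log2 difference of 4.41 ± 0.12 (SE; adjusted p = 3.35e-11), MEIS3 by 1.16 ± 0.10 and PKNOX2 by 1.86 ± 0.22. These were 3 of 8 members called higher, while 7.36% of all tested genes were higher. MEIS1 was at 0.86 ± 0.22 (7.43 times in mean TPM, adjusted p = 0.00796) and missed the size threshold, which it passed with a pseudocount of 0.1 (2.38), without hPSC replicate 1 (1.01) and without aNE replicate 2 (1.16). In pNE, MEIS1 rose by 1.81 ± 0.22, MEIS2 by 6.36 ± 0.12, MEIS3 by 1.95 ± 0.10 and PKNOX2 by 1.71 ± 0.22. These were 4 of 8, while 7.14% of all tested genes were higher. No member was called lower in either comparison, against 6.19% and 5.74% of tested genes. Because the scale is log2(TPM + 1), such differences understate the change of genes near 0, and the comparisons share the hPSC libraries.

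Between the origins at day 2, MEIS2 was the member called: it was higher in pNE by 1.95 ± 0.12 (adjusted p = 2.55e-07), 3.96 times the mean TPM of aNE. This was 1 of 8 members, against 2.37% of all tested genes. MEIS1 (0.95 ± 0.22, adjusted p = 0.0128) and MEIS3 (0.78 ± 0.10, adjusted p = 2.02e-04) had non-overlapping libraries and passed the adjusted p but missed the size threshold. By adjusted p alone 4 of 8 members differed (PBX2 as well), against 13.6% of tested genes. MEIS1 passed it with a pseudocount of 0.1 (1.44), without aNE replicate 1 (1.25) and without pNE replicate 1 (1.04). For PBX3, PBX4, PKNOX1 and PKNOX2 the 95% intervals of the difference covered 0, with bounds of -0.40 to 0.22, -0.33 to 0.57, -0.02 to 1.03 and -0.61 to 0.32.

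At day 4 all MEIS genes were higher in pNE-derived cells in forebrain and hindbrain medium. In forebrain medium MEIS1 differed by 4.83 ± 0.22 (44.0 times in mean TPM, adjusted p = 5.17e-09), MEIS2 by 2.94 ± 0.12 and MEIS3 by 1.97 ± 0.10. These 3 of 8 stood against 3.79% of tested genes called higher. In hindbrain medium MEIS1 differed by 5.53 ± 0.22 (67.8 times, adjusted p = 1.94e-09), MEIS2 by 3.01 ± 0.12 and MEIS3 by 1.20 ± 0.10, 3 of 8 against 3.92%. In midbrain medium MEIS1 (3.75 ± 0.22, adjusted p = 8.11e-08) and MEIS2 (2.18 ± 0.12) were higher, 2 of 8 against 3.19%. There MEIS3 had a difference of -0.995 ± 0.10 (adjusted p = 1.57e-05) and PBX3 of -0.98 ± 0.14 (adjusted p = 3.30e-04), both just short of the size threshold. They passed it with a pseudocount of 0.1, at -1.01 and -1.03, and 6 of 8 members passed the adjusted p alone, against 16.6% of tested genes. The median difference of the 8 members was 0.34 in forebrain, -0.25 in midbrain and 0.56 in hindbrain medium, while the median of all tested genes was -0.05, -0.04 and -0.04.

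**Figure D2:**
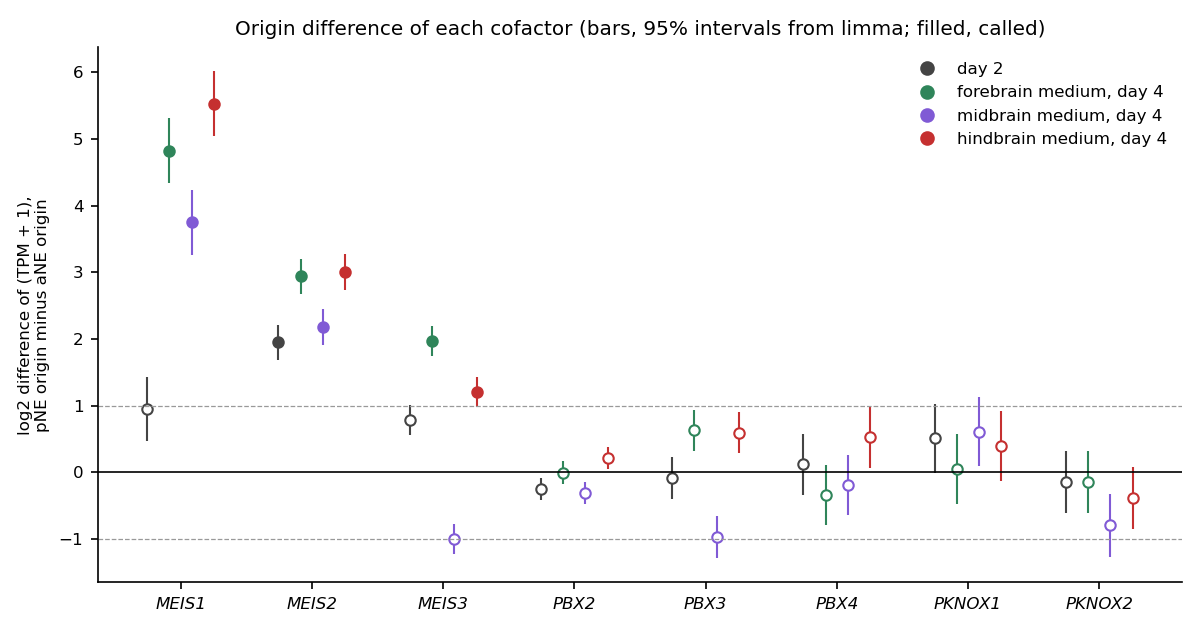
Difference of log2(TPM + 1) between pNE origin and aNE origin for each cofactor at day 2 and in each day-4 medium, with 95% intervals and filled points where called. MEIS1 and MEIS2 are called higher in all 3 media, and MEIS3 lies at -0.995 in midbrain medium, opposite to its 1.97 in forebrain medium.

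Markers of other cell types also differed with origin. The surface ectoderm list, mainly the keratins KRT8 and KRT18, summed to 811 to 817 TPM in aNE and 1407 to 1634 in pNE, with 674 to 689 in aNE_T and 1415 to 1542 in pNE_T. It summed to 1087 to 1168 in aNE_M and 2255 to 2313 in pNE_M, and to 1366 to 1473 in aNE_H and 1554 to 1780 in pNE_H. Undifferentiated hPSC already had a sum of 875 to 906 TPM, so this sum does not single out surface ectoderm. TP63, a defining surface ectoderm gene, was at most 0.403 TPM in any library. GRHL3, also summed here, was at 9.28 and 8.16 TPM in aNE and 18.3 and 19.8 in pNE. At day 4 it was instead lower for pNE origin, at 41.7 and 37.7 TPM in aNE_T and 2.44 and 2.65 in pNE_T. Its values were 8.37 and 9.78 in aNE_M and 2.50 and 2.56 in pNE_M. They were 19.0 and 16.0 in aNE_H and 2.28 and 2.11 in pNE_H. The mesoderm list summed to 4.86 to 4.95 TPM in aNE and 9.27 to 11.3 in pNE, and to 4.91 to 6.20 in aNE_T and 25.1 to 31.2 in pNE_T. It was higher for aNE origin in midbrain medium (142 to 156 in aNE_M and 74.2 to 76.4 in pNE_M) and hindbrain medium (54.89 to 59.04 in aNE_H and 43.9 in both pNE_H libraries). In aNE_M most of it was PAX3, which dorsal neural cells also express, at 120.4 and 130.0 TPM, against 43.01 and 38.95 in pNE_M. In aNE_H most of it was PAX3 too, at 54.2 and 50.3 TPM, against 2.37 and 4.54 in pNE_H. The higher sums of aNE origin in these media thus rested on PAX3, and the rest of the list summed to less for aNE origin in both. MEOX1, a paraxial mesoderm gene, was at 0.795 and 0.481 TPM in aNE_T and 19.8 and 15.8 in pNE_T, and at 13.7 and 16.4 in aNE_M and 23.9 and 28.1 in pNE_M. FOXC1 was at 2.10 and 1.80 TPM in aNE_H and 19.6 and 16.7 in pNE_H. The mesoderm gene MSGN1 was at most 0.681 TPM in any library.

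The sum of the neuron list, mostly the tubulin TUBB3, was lower for pNE origin at day 2 and in every day-4 medium. It was 388 to 403 TPM in aNE and 173 to 208 in pNE, and 167 to 187 in aNE_T and 45.7 to 50.4 in pNE_T. It was 514 to 559 in aNE_M and 242 to 269 in pNE_M, and 164 to 182 in aNE_H and 61.2 to 71.6 in pNE_H. In hPSC the same sum was 225 to 236 TPM. NEUROG2, a gene of this list, went the other way in midbrain and forebrain medium. It was at 0.067 and 0.22 TPM in aNE_M and 24.8 and 14.2 in pNE_M, and at 0.021 and 0.040 in aNE_T and 1.41 and 1.78 in pNE_T. The neural crest list summed to 26.95 to 34.21 TPM in aNE and 11.0 to 15.1 in pNE, and to 32.6 to 35.1 in aNE_T and 17.7 to 18.4 in pNE_T. In midbrain medium it was instead higher for pNE origin (20.3 to 21.1 in aNE_M and 54.2 to 58.2 in pNE_M), with FOXD3, which premigratory crest and pluripotent cells express, at 0.0296 and 0.073 TPM in aNE_M and 20.2 and 11.6 in pNE_M. It was 71.2 to 72.9 in aNE_H and 72.9 to 80.1 in pNE_H. The 4 endoderm genes summed to at most 0.825 TPM in aNE and its derivatives, and to 2.62 to 4.07 in pNE, 9.21 to 11.5 in pNE_T, 2.09 to 3.05 in pNE_M and 12.8 to 16.0 in pNE_H. The part of any of these lists in the cofactor differences was not tested. In bulk RNA, more cells of a type and more transcript per cell cannot be told apart.

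From day 2 to day 4, aNE-derived cells changed mainly in MEIS3 and PKNOX2. In forebrain medium PKNOX2 rose by 1.10 ± 0.22 (1 of 8 members, 4.61% of genes higher); without aNE replicate 2 this was 0.96 and not called. In midbrain medium MEIS3 rose by 1.37 ± 0.10 and PKNOX2 by 1.95 ± 0.22 (2 of 8, 4.34% higher). In hindbrain medium MEIS3 rose by 1.38 ± 0.10 (1 of 8, 3.24% higher) and PBX4 fell by 1.13 ± 0.21 on the log2 scale (1 of 8, 6.83% lower). That PBX4 call rested on a library listed at 0: it was -0.84 without aNE_H replicate 2. MEIS1 and MEIS2 were not called in aNE-derived cells, with differences of 0.27 to 0.55.

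The pNE-derived cells had more called cofactors than aNE-derived cells in forebrain and hindbrain medium, and as many in midbrain medium. In forebrain medium MEIS1 rose by 4.27 ± 0.22, MEIS3 by 2.03 ± 0.10, MEIS2 by 1.26 ± 0.12, PKNOX2 by 1.09 ± 0.22 and PBX3 by 1.07 ± 0.14. These were 5 of 8 members, against 4.68% of tested genes higher. PKNOX2 was not called without pNE replicate 1 (0.80) or pNE_T replicate 1 (0.98), nor PBX3 without pNE_T replicate 2 (0.97). In midbrain medium MEIS1 rose by 3.10 ± 0.22 and PKNOX2 by 1.29 ± 0.22 (2 of 8, 4.87% higher), and PKNOX2 lost its call without pNE replicate 1, at just under 1. In hindbrain medium MEIS1 rose by 5.13 ± 0.22, MEIS3 by 1.80 ± 0.10 and MEIS2 by 1.36 ± 0.12 (3 of 8, 4.47% higher).

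By adjusted p alone, without the size threshold, more members differed, and so did more of all genes. The members were 7 of 8 in aNE against hPSC, where 41.5% of tested genes passed, 2 in aNE_T against aNE (30.3%) and 4 in aNE_M against aNE (35.5%). They were 6 in pNE_M against pNE (35.4%) and 6 in pNE_H against pNE (37.2%). In pNE_M against pNE, those below the size threshold were MEIS3 (-0.41), PBX3 (-0.75) and PBX4 (-0.97), which fell, and MEIS2 (0.69), which rose.

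**Figure D3:**
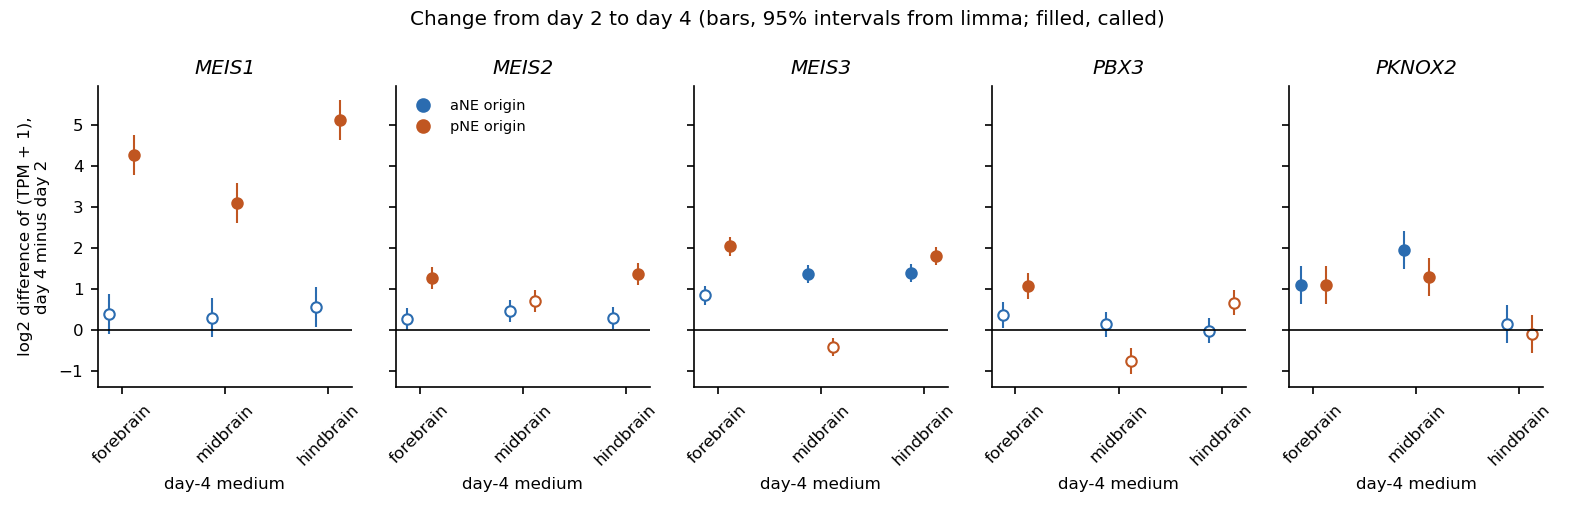
Change of log2(TPM + 1) from day 2 to day 4 for 5 cofactors by medium and origin, with 95% intervals and filled points where called. The MEIS1 change is 4.27, 3.10 and 5.13 for pNE origin in forebrain, midbrain and hindbrain medium and at most 0.55 for aNE origin.

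Interactions tested whether the day-2 to day-4 change differed between the origins. For MEIS1 the change was larger in pNE-derived cells by 3.88 ± 0.32 in forebrain (adjusted p = 2.73e-06), 2.80 ± 0.32 in midbrain (4.96e-05) and 4.58 ± 0.32 in hindbrain medium (6.78e-07). For MEIS3 it was larger by 1.19 ± 0.15 in forebrain medium (adjusted p = 1.05e-04) and smaller in midbrain medium, at -1.78 ± 0.15 (2.94e-06). For MEIS2 it was larger by 1.06 ± 0.17 in hindbrain medium (adjusted p = 9.60e-04) and was 0.99 in forebrain medium, below the size threshold. The hindbrain call was lost in 4 of 15 alternatives: with a pseudocount of 0.1 (adjusted p = 0.0757), without aNE replicate 1 (0.95), without aNE_H replicate 1 (0.99) and without pNE_H replicate 2 (0.98). The forebrain value was called with median-ratio scaling (1.04), with quantile normalization (1.07) and without aNE replicate 2 (1.10), aNE_T replicate 1 (1.03), pNE replicate 2 (1.04) or pNE_T replicate 1 (1.05). The called members were 2 of 8 in each medium, against 7.14%, 7.02% and 7.83% of tested genes called in either direction. By adjusted p alone 4 members passed in forebrain (12.3% of tested genes) and 4 in hindbrain medium (16.1%). The PKNOX2 interactions were -0.0043, -0.65 and -0.25 (SE 0.31 each), with the lowest adjusted p at 0.198.

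Medium pairs within an origin showed where the cofactors depended on it. Among pNE-derived cells, midbrain medium was below hindbrain medium in MEIS1 (-2.03 ± 0.22), MEIS3 (-2.21 ± 0.10) and PBX3 (-1.42 ± 0.14) and above it in PKNOX2 (1.40 ± 0.22), 4 of 8 against 5.99% of tested genes. Forebrain medium was above midbrain medium in MEIS1 (1.17 ± 0.22), MEIS3 (2.45 ± 0.10) and PBX3 (1.83 ± 0.14), 3 of 8 against 8.6%. It was above hindbrain medium in PKNOX2 (1.20 ± 0.22), 1 of 8 against 5.03%. Among aNE-derived cells, PKNOX2 was higher in midbrain than in hindbrain medium by 1.81 ± 0.22 (1 of 8 against 4.92%), and PBX4 was higher in forebrain than in hindbrain medium by 1.28 ± 0.21 (1 of 8 against 6.6%). This PBX4 call too rested on the library listed at 0, and the difference was 0.99 without aNE_H replicate 2. The MEIS1 difference between pNE_T and pNE_M lost its call without pNE_M replicate 1 (0.90) and with a pseudocount of 0.1 (adjusted p = 0.0582). The other 8 of these 10 calls held under all the alternatives run, which for medium pairs were chosen after seeing the data. In aNE-derived cells, forebrain and midbrain medium differed in 0 of 8 by the call, against 10.1%, and the largest difference was the -0.85 of PKNOX2. MEIS1 and MEIS2 were called between no media of the aNE-derived cells, with 95% intervals inside -0.73 to 0.58.

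Summed over the 3 genes, MEIS TPM was 13.2 ± 0.0322 (SD, n = 2) in hPSC and 55.7 ± 2.66 in aNE. It was 86.1 ± 1.48, 115 ± 1.32 and 112 ± 6.04 in aNE_T, aNE_M and aNE_H. It was 153 ± 10.7 in pNE, 529.9 ± 19.3 in pNE_T, 233 ± 31.3 in pNE_M and 576 ± 22.0 in pNE_H. The composition shifted as well. MEIS3 made up 97.2% ± 2.61 of the sum in hPSC, 70.9% ± 2.97 in aNE_H and 16.8% ± 0.189 in pNE_M. MEIS1 made up 1.36% to 2.02% of it in all aNE-origin groups and in pNE, but 14.4%, 14.5% and 24.2% in pNE_T, pNE_M and pNE_H. The levels of 27 HOX genes, the partners of these cofactors, summed to at most 0.951 TPM on average in hPSC and all aNE-origin groups. They summed to 205 ± 12.2 TPM in pNE, 716 ± 15.8 in pNE_T, 1387 ± 55.8 in pNE_M and 951 ± 94.6 in pNE_H. The group with the most HOX transcript, pNE_M, was thus the pNE-derived group with the least MEIS transcript.

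**Figure D4:**
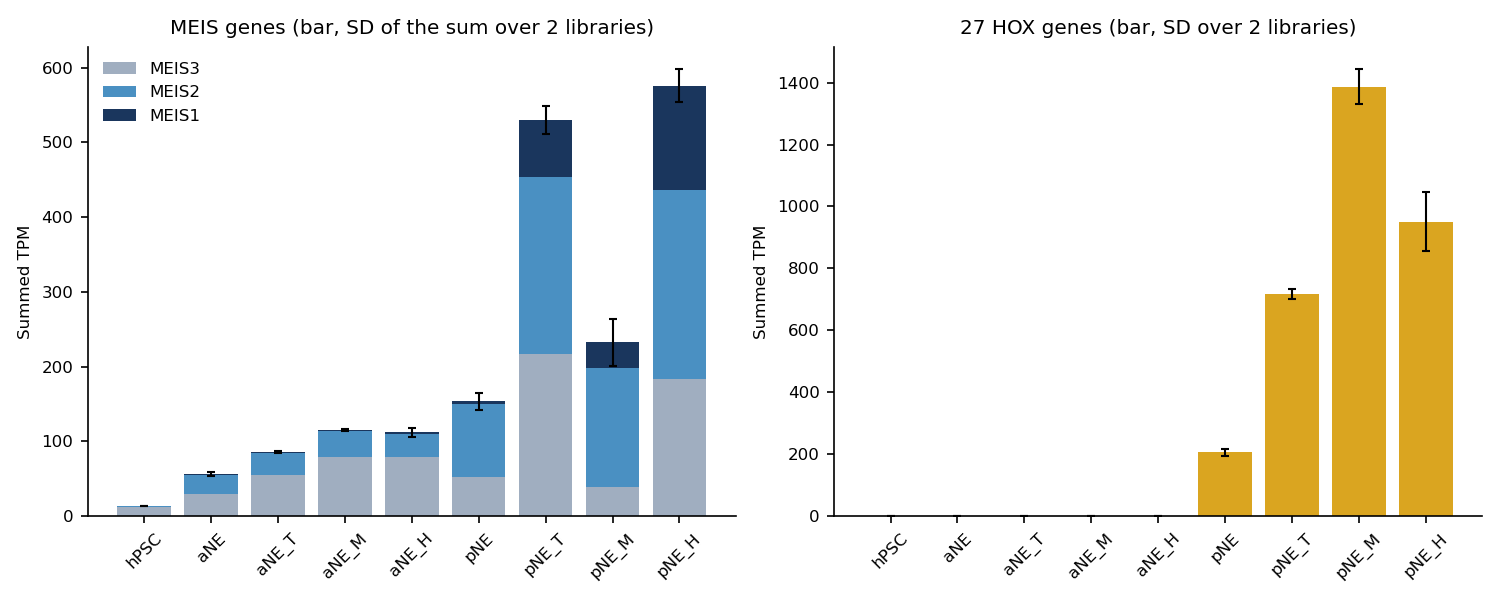
Summed TPM by group of the 3 MEIS genes (left, stacked by gene) and of 27 HOX genes (right), with SD over 2 libraries. MEIS sums are 529.9 and 576 TPM in pNE_T and pNE_H and 233 TPM in pNE_M, whereas HOX sums are highest, at 1387 TPM, in pNE_M.

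Of the 27 HOX genes, 22 passed the filter, all of them only through pNE-origin libraries (at most 0.696 TPM in any other library), so called differences between the origins are not counted for them. HOXB1, which marks a hindbrain segment, was at 17.3 ± 3.05 TPM (SD, n = 2) in pNE and 136 ± 15.1, 343 ± 4.56 and 329.8 ± 24.8 in pNE_T, pNE_M and pNE_H. HOXA3 was at 2.41 ± 1.46 TPM in pNE and 72.1 ± 3.46, 73.1 ± 3.21 and 70.5 ± 15.0 at day 4. HOXB2 was at 11.1 ± 0.885 TPM in pNE and 142 ± 5.94, 178 ± 7.69 and 212 ± 56.9 at day 4.

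Genes known to be regulated through HOX cofactors formed a list of 8, of which 5 are also in the HOX list. All 8 passed the filter, but 6 of them only through pNE-origin libraries, so called differences between the origins are not counted for this list. PAX6, an eye and neural tube gene, was called lower in pNE than in aNE, where 1.48% of tested genes were lower, and in pNE_M than in aNE_M (2.55% lower). It was at 28.9 and 29.3 TPM in aNE and 1.34 and 2.54 in pNE, and at 2.72 and 3.37 in aNE_M and 0.508 and 0.232 in pNE_M. HOXA2, on this list, was at 3.41 ± 0.616 TPM (SD, n = 2) in pNE with group means of 11.4 to 15.8 TPM in its day-4 derivatives, and no mean elsewhere was above 0.263 TPM.

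Of 9 other TALE homeobox genes, 7 passed the filter, 6 of them outside pNE-origin libraries as well, and calls are counted for these 6. Between the origins, 0 were higher and 3 lower in pNE than in aNE (2.37% of tested genes higher, 1.48% lower). In forebrain medium 1 was higher and 0 lower (3.79% and 3.97%), in midbrain medium 0 and 1 (3.19% and 2.55%), and in hindbrain medium 1 and 0 (3.92% and 2.91%). IRX3, an Iroquois patterning gene, was lower in pNE by 1.82 ± 0.21 on the log2 scale (32.7 ± 0.876 TPM in aNE and 8.63 ± 1.96 in pNE, SD, n = 2). It was higher in pNE_T than in aNE_T by 1.89 ± 0.21 and in pNE_H than in aNE_H by 2.04 ± 0.21, with means of 29.0, 9.50 and 35.0 TPM in pNE_T, pNE_M and pNE_H. Its change from day 2 to day 4 was thus larger for pNE origin in all 3 media, by 3.71, 2.09 and 3.86 (SE 0.29 each) in forebrain, midbrain and hindbrain medium, and all 3 interactions were called. The IRX5 interactions, at 2.67, 1.63 and 2.81, were called too. IRX1 and IRX5 were lower in pNE by 1.32 and 1.85. IRX1 was also lower in pNE_M than in aNE_M by 2.46 ± 0.22, and its interaction was 2.16 in forebrain and -1.14 in midbrain medium, both called.

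Of the 8 genes of the retinoic acid list, all tested, 6 passed the filter outside pNE-origin libraries as well, and calls are counted for these. In pNE against aNE 5 of the 6 were higher (2.37% of tested genes), in forebrain medium 6 (3.79%), in midbrain medium 5 (3.19%) and in hindbrain medium 5 (3.92%). None of the 6 was lower in any of these, against 1.48%, 3.97%, 2.55% and 2.91% of tested genes. RARB, a receptor gene induced by retinoic acid, was at 20.7 ± 0.948 TPM (SD, n = 2) in pNE, 81.5 ± 5.25 in pNE_T, 4.82 ± 0.480 in pNE_M and 61.2 ± 6.09 in pNE_H. DHRS3, which reduces retinal and is induced by retinoic acid, was at 59.7 ± 4.60, 129 ± 12.9, 16.8 ± 0.242 and 106 ± 0.549 TPM in the same groups. Both genes were lower in pNE_M than in pNE (by 1.90 ± 0.15 and 1.77 ± 0.12 on the log2 scale). CRABP2, a retinoic acid carrier, instead was highest in pNE_M, at 7234 ± 403 TPM, against 5718 ± 490 in pNE_T and 5064 ± 58.5 in pNE_H. RARA was at 41.8 ± 10.3 TPM in pNE and 82.6 ± 5.10, 42.4 ± 2.50 and 86.8 ± 6.87 at day 4. By group means, RARB, DHRS3 and RARA were thus lowest in pNE_M among the 3 pNE-derived groups, as were the MEIS and PBX members. CRABP2, PKNOX1 and PKNOX2 were highest there. RARB, DHRS3, MEIS3 and PBX3 had forebrain medium first, and RARA, MEIS1 and MEIS2 had hindbrain medium first. For MEIS2, MEIS3 and PBX3 the difference between pNE_T and pNE_H did not pass limma's adjusted p (0.684, 0.144 and 0.0686). The RARA libraries of pNE_T (79.0 and 86.2 TPM) and pNE_H (91.7 and 82.0) overlapped. Between pNE_M and pNE_T, PKNOX1 and PKNOX2 did not pass limma's adjusted p (0.385 and 0.548). Between pNE_M and pNE_H, PKNOX1 and PBX4 did not pass it (0.871 and 0.496). A link between these genes was not tested.

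Genes most like each cofactor were ranked by Pearson's r over the 9 group means of log2(TPM + 1) among 12452 genes; the means share libraries and groups and the r values are descriptions. For MEIS1 they were BCO2 (r = 0.987) and METTL24 (0.976), whose group means reached only 5.02 and 7.73 TPM. For MEIS2 they were ZMIZ1 and MAPK12 (both 0.981), and for MEIS3 CETN2 (0.976) and SCRN3 (0.959). For PBX2 they were PI4KA (0.950) and IFT80 (0.948), for PBX3 UBE2Q2P2 (0.957) and PSENEN (0.923), for PKNOX1 GRIA4 (0.919) and MPP1 (0.916), and for PKNOX2 BMP1 (0.980) and GRINA (0.976). Among the cofactors themselves, MEIS1 and MEIS2 had r = 0.81, MEIS2 and MEIS3 0.80, and MEIS1 and MEIS3 0.73. PBX2 and PKNOX1 had r = -0.65 over ranges that were narrow in both genes.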

How the data were processed

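Poly-A-selected RNA was sequenced from 18 libraries, 2 per group, and the authors deposited gene-level TPM, which scales for transcript length and library total. Per the submitters' processing notes, bcl2fastq, FastQC, Trim Galore, kallisto and deepTools were used and hg38 was named, without versions. The annotation and any use of strand are not given in the sources used here. TPM keeps no read number, so depth is unknown.

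The analysis used log2(TPM + 1), with a pseudocount of 1. A gene was tested if 2 or more libraries reached 1 TPM, which left 17033. Limma 3.58.1 (R 4.3.3) estimated the 9 group means in a single model of the 18 libraries (9 residual degrees of freedom, trended variances). P-values are two-sided and Benjamini-Hochberg adjusted over all tested genes of a comparison. A call needed a log2 difference of at least 1 in size besides an adjusted p under 0.05. The script was tested on simulated data.

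The members and lists were chosen with earlier results of these data known. Beside the members, the text names up to 4 genes of each pathway list (those called in most of the 4 origin comparisons, ties by mean difference) and the 2 genes likest each member except PBX4, all by a written rule, plus cell type markers chosen from the marker lists after their values were seen. A gene that this rule would name is not reported here by name and stays in the list counts and sums. Alternatives were a pseudocount of 0.1, no filter, quantile normalization, median-ratio scaling, a filter at 5 TPM, a replicate block, only the libraries compared, adjusted p alone and leaving out each library. Those for pairs of media were added after seeing the data.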

Additional observations from a re-analysis of the deposited data

Results flagged for a closer look

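The 2 origins differed in their change from day 2 to day 4, by limma's interaction test, in 6 combinations of gene and medium. For MEIS1 the pNE change exceeded the aNE change by 3.88 in forebrain, 2.80 in midbrain and 4.58 in hindbrain medium, on the log2(TPM + 1) scale. For MEIS2 the excess was 1.06 in hindbrain medium, a call that was lost in 4 of 15 alternatives (0.95 at the lowest, without aNE replicate 1). For MEIS3 it was 1.19 in forebrain medium and -1.78 in midbrain medium, the 1 negative value among the 6. Plating density at day 4 differed with origin, so the origin and the density cannot be told apart in these values.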

How the results depend on the processing

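Of 37 called differences of the cofactors (31 between groups, 6 interactions), 31 were called under all alternatives run and 0 changed sign; PBX4 was not tested with the 5 TPM filter. The 6 that lost a call in some alternative were PKNOX2 in aNE_T against aNE, pNE_T against pNE and pNE_M against pNE, PBX3 in pNE_T against pNE, PBX4 in aNE_H against aNE (-0.97 with quantile normalization) and the MEIS2 hindbrain interaction (adjusted p = 0.0757 with a pseudocount of 0.1).

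Calls by adjusted p alone gave 7 members in aNE against hPSC, 4 in pNE against aNE, 6 in pNE_M against aNE_M, 2 in aNE_T against aNE, 4 in aNE_M against aNE, 6 in pNE_M against pNE, 6 in pNE_H against pNE, and 4 in each of the forebrain and hindbrain interactions. The pseudocount of 0.1 gave 2 in pNE against aNE, 4 in pNE_M against aNE_M and 1 in the hindbrain interaction. For aNE_H against aNE the count was 1 with the 5 TPM filter and with quantile normalization. Leaving out 1 library gave 1 to 2 members in pNE against aNE, 2 to 4 in pNE_M against aNE_M, 0 to 1 in aNE_T against aNE, 1 to 2 in aNE_H against aNE and 1 to 2 in the hindbrain interaction. The hindbrain value of MEIS2 was 0.95 without aNE replicate 1, 0.99 without aNE_H replicate 1 and 0.98 without pNE_H replicate 2.

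Signs turned only in uncalled differences near 0. PBX2 in pNE_T against aNE_T was 0.059 with median-ratio scaling and 9.84e-04 with quantile normalization, and in aNE_M against aNE 1.08e-04 with median-ratio scaling. PBX3 in aNE_H against aNE was 0.030 and 0.0014 under the same scalings. The PKNOX2 forebrain interaction was 0.0054 with a pseudocount of 0.1, 0.047 with median-ratio scaling and 0.019 with quantile normalization. Without single libraries, PBX2 ranged from -0.037 to 0.027 in pNE_T against aNE_T, -0.034 to 0.014 in aNE_T against aNE, -0.13 to 0.068 in aNE_M against aNE, -0.18 to 0.011 in pNE_M against pNE and -0.15 to 0.041 in the midbrain interaction. PBX3 ranged from -0.23 to 0.058 in pNE against aNE, -0.011 to 0.28 in aNE_M against aNE and -0.16 to 0.13 in aNE_H against aNE. PKNOX1 ranged from -0.020 to 0.11 in pNE_T against aNE_T, -0.42 to 0.53 in aNE_M against aNE, -0.0052 to 0.36 in aNE_H against aNE, -0.33 to 0.026 in pNE_T against pNE, -0.022 to 0.34 in pNE_M against pNE, -0.11 to 0.25 in pNE_H against pNE, -0.37 to 0.58 in the midbrain and -0.29 to 0.074 in the hindbrain interaction. PKNOX2 ranged from -0.44 to 0.15 in pNE against aNE, -0.40 to 0.18 in pNE_H against pNE, -0.30 to 0.29 in the forebrain and -0.54 to 0.045 in the hindbrain interaction. The cause of these shifts was not tested.

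Replicate numbers did not pair the samples: over 36 pairs of groups, deviations of same-numbered libraries had r from -0.09 to 0.08, with 0 above 0.1. The fit with the replicate block kept all 120 member comparisons on the same side of the threshold, for example a MEIS1 difference of 4.83 between pNE_T and aNE_T. Depth cannot be assessed from TPM, and 2 libraries a group limit the precision.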
